A study of Mus musculus with 12 samples.

Results

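The genes for nuclear pore proteins and for the soluble receptors that carry cargo through the pores were examined in mouse naïve CD8+ T cells that had been cultured with or without an antibody to CD3, each with or without an agonistic antibody to the inhibitory receptor LAIR-1. Members were taken by symbol alone: every gene whose name begins with Nup and a digit, or with Kpna, Kpnb, Ipo, Xpo, Tnpo or Ranbp. This gave 52 of the 14323 genes in the count table, all 52 of them protein coding, and none was chosen singly for its level or its change. The rule itself was set with earlier results of these data known. They comprised 23 genes for nucleoporins (the Nup genes and Ranbp2, which encodes the cytoplasmic nucleoporin also called Nup358), 24 genes for transport receptors and 5 genes for other Ran-binding proteins.

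The nuclear pore complex is a ring-shaped channel through the nuclear envelope. A scaffold of Y-shaped complexes and an inner ring holds the central channel, where nucleoporins rich in phenylalanine-glycine repeats form the permeability barrier, and filaments extend into the cytoplasm and into a nuclear basket. Importins bind cargo in the cytoplasm and release it in the nucleus when they meet the small GTPase Ran in its GTP-bound form, whereas exportins bind their cargo together with Ran-GTP in the nucleus and release it once GTP is hydrolysed in the cytoplasm. A resting lymphocyte is small and has little cytoplasm, and after engagement of its antigen receptor it grows, makes ribosomes and brings transcription factors such as NFAT and NF-κB into the nucleus.

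Cells were sorted as TCRβ+ CD8+ CD62L+ CD44- splenocytes of 3 adult wild type mice. Wells coated with antibody received 100000 cells each and were cultured for 6 h. Each mouse gave 1 library in each of the 4 conditions, so that there were 12 libraries in all. Unstimulated isotype wells held isotype control only, unstimulated anti-LAIR-1 wells held isotype control with 2.5 µg/ml of the anti-LAIR-1 clone 2C7, anti-CD3 isotype wells held 2.5 µg/ml of anti-CD3 clone 145-2C11 with isotype control, and anti-CD3 anti-LAIR-1 wells held both specific antibodies at 2.5 µg/ml.

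RNA was sequenced by CEL-seq, which reads each transcript near its polyadenylated end, and levels are given as CPM, counts scaled to the size of the library with TMM factors from all 12 libraries. Libraries held 1781218 to 7725545 counts on 10816 to 11838 genes, and 3 counts were worth 0.388 to 1.68 CPM. The unstimulated libraries were shallower on the whole, with 1781218 to 3589194 counts against 3478294 to 7725545 with anti-CD3, and these ranges overlapped. All 8 markers of naïve CD8+ T cells were detected, with a summed level of 5140 to 5570 CPM without and 1430 to 2050 CPM with anti-CD3, while 6 genes of early activation summed to 236 to 269 CPM without and 2270 to 2840 CPM with it. Markers of B cells, CD4+ T cells, NK cells, myeloid cells and platelets summed to at most 9.68 CPM per cell type in any library. The NK marker Ncr1, the myeloid marker Lyz2 and all 4 red cell markers were absent from the count table and could not be assessed. Differences within a comparison were tested with edgeR's quasi-likelihood test over all genes, and a member was called at a Benjamini-Hochberg adjusted p-value under 0.05.

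Anti-CD3 raised the RNA of most of the pore and transport genes. Summed over the members, the level was 1861, 1808 and 1899 CPM in the unstimulated isotype wells of mice 1, 2 and 3, and 3692, 3758 and 3717 CPM in the anti-CD3 isotype wells of the same mice. The summed level with anti-CD3 lay above that without it in every mouse, and the groups were far apart. CPM is a share of the counted RNA, and in these bulk libraries fewer cells of a type and less RNA per cell cannot be told apart. Of the 52 members, 47 had enough counts to be tested, and 40 of these were called with isotype: 37 were higher and 3 lower with anti-CD3. Anti-CD3 changed most of the transcriptome, and 71.4% of all 8441 genes tested were called, 35.6% as higher and 35.7% as lower. The members' share of higher calls, 78.7%, was thus above that of all genes, while their share called in either direction, 85.1%, was nearer to it.

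The median log2 fold change of the 47 members was 1.08, beside -0.0137 for all genes tested. A rise of more than 1 on the log2 scale that passed the test was found for 24 members and for 20.9% of all genes, and one of more than 2 for 5 members (Ipo4, Ipo5, Kpna2, Nup43 and Ranbp1) and 6.01% of all genes. All 3 anti-CD3 libraries lay above all 3 unstimulated ones for 38 members and for 38.1% of genes. With every library thinned to 1781218 counts, 35 members were called, 31 of them as higher. Scaling by the upper quartile moved the median of all genes to -0.19 and left 31 members higher and 7 lower, with Nup153, Kpna4, Ipo8 and Nup210 then among the lower.

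**Figure D1:**
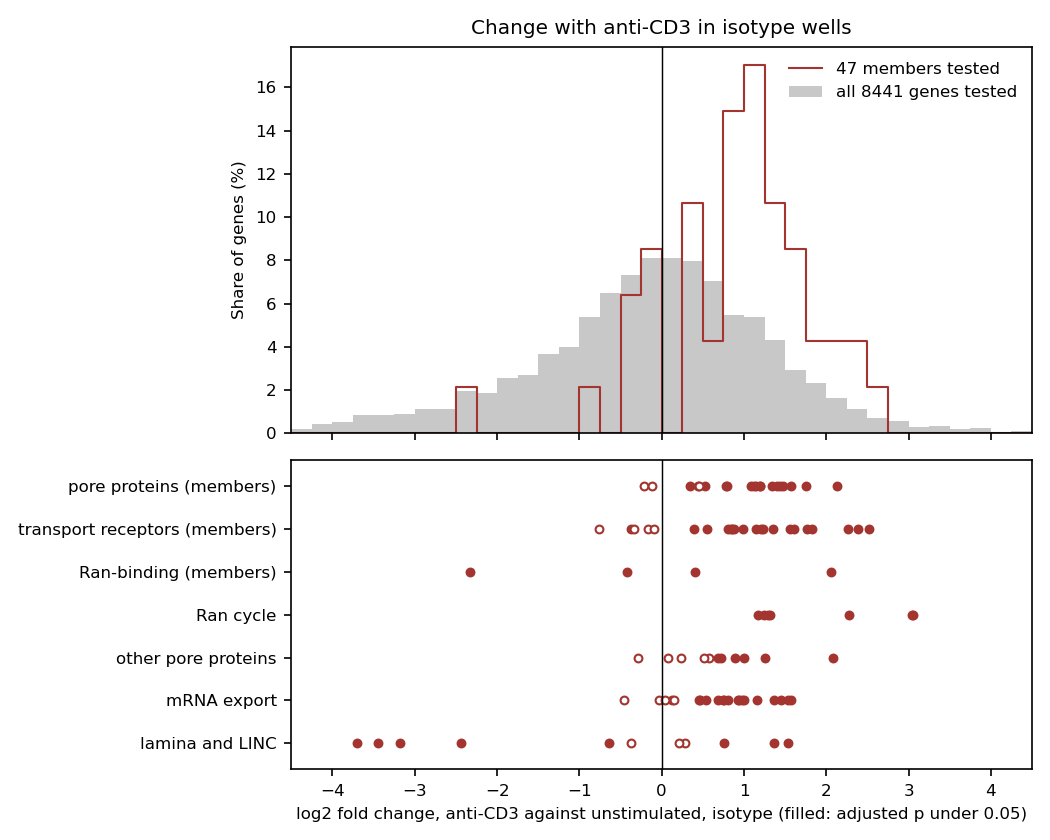
Change with anti-CD3 in the isotype wells, as log2 fold change on the horizontal axis. The upper panel gives the share of genes (%) in bins of 0.25 for all 8441 genes tested (grey) and for the 47 members tested (red line), whose median was 1.08 beside -0.0137. In the lower panel each point is a gene of the members or of the further pathway lists, filled where the adjusted p-value was under 0.05, and the lamina and LINC genes are the ones with several large falls.

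In the scaffold of the pore, all but 1 of the tested genes rose. All 6 members of the Y complex, which forms the outer rings of the pore, were called as higher with isotype, with a median log2 fold change of 1.45. Nup43, a propeller subunit of this complex, rose the most, from 7.27, 3.26 and 11.8 CPM in unstimulated isotype wells to 32.6, 31.9 and 32.1 CPM with anti-CD3. Its anti-LAIR-1 wells held 8.85, 7.15 and 8.81 CPM without and 31.6, 27.2 and 30.5 CPM with anti-CD3. The anti-CD3 libraries lay above the unstimulated ones without overlap, and the log2 fold change with isotype was 2.13 (SE 0.27, edgeR adjusted p = 1.85e-07). Nup160 (1.57), Nup133 (1.47), Nup107 (1.44), Nup37 (1.20) and Nup85 (1.15) followed in log2 fold change.

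Of the 5 inner ring genes, 4 rose with isotype. Nup205, one of the large scaffold proteins of the inner ring, was at 17.5, 16.3 and 20.4 CPM in unstimulated isotype wells and at 56.1, 65 and 63.8 CPM with anti-CD3. With anti-LAIR-1 its values were 19.6, 15.1 and 24.3 CPM without anti-CD3 and 58.9, 61.1 and 44.6 CPM with it. Each anti-CD3 library was higher than each unstimulated one, with a log2 fold change of 1.75 with isotype (SE 0.16, edgeR adjusted p = 1.02e-09). Nup93, which links the inner ring to the channel, Nup188 and Nup155 had log2 fold changes of 1.34, 1.12 and 1.08. Nup35 did not pass the test, at 0.45 on the log2 scale (edgeR adjusted p = 0.0687).

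In the central channel, all 3 tested genes were called as higher. Nup54, which forms the channel together with Nup62, was at 15.9, 11.8 and 10.8 CPM without and 38.3, 33.6 and 35 CPM with anti-CD3 in isotype wells, and at 16.6, 14.3 and 16.3 and 35.8, 37.5 and 27.9 CPM in anti-LAIR-1 wells. Its groups with and without anti-CD3 did not overlap, and the log2 fold change with isotype was 1.40 (SE 0.20, edgeR adjusted p = 1.12e-06). Nup62 rose by 1.20 on the log2 scale. Nup98, whose transcript encodes both the channel protein Nup98 and the Y complex protein Nup96, had few counts, 314 over all libraries. Its level was 4.29, 4.48 and 5.38 CPM in unstimulated and 10.3, 8.46 and 6.58 CPM in anti-CD3 isotype wells, and 4.15, 2.91 and 3.47 and 7.27, 6.41 and 7.19 CPM in the corresponding anti-LAIR-1 wells. The rise with isotype was called (log2 fold change 0.79, edgeR adjusted p = 0.0403) but missed the threshold with mouse as a block (edgeR adjusted p = 0.0508) and in DESeq2 (adjusted p = 0.0931).

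The peripheral parts of the pore moved less. The 3 genes of the cytoplasmic face, which docks export complexes and mRNA remodelling factors, were called as higher with a median log2 fold change of 0.529. Nup88 was at 34.4, 38.3 and 29.6 CPM in unstimulated and 61.6, 58.8 and 61.2 CPM in anti-CD3 isotype wells, and with anti-LAIR-1 it was at 33.2, 44.8 and 36.6 and 54.3, 50.3 and 55.9 CPM. These groups did not overlap, and the log2 fold change with isotype was 0.78 (SE 0.14, edgeR adjusted p = 3.19e-05). Nup214, the partner of Nup88, and Ranbp2 had log2 fold changes of 0.35 and 0.53, and each of these calls was lost under 7 of the 14 other settings.

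Of the nuclear basket genes, Nup50, which helps to release importin α from its cargo, rose and Nup153 did not pass. Nup50 was at 58.8, 54.6 and 53.8 CPM in unstimulated and 73.4, 81.3 and 77.7 CPM in anti-CD3 isotype wells, and at 39.5, 53.2 and 51.5 and 77.7, 73.1 and 72.6 CPM with anti-LAIR-1. Its libraries were separated by anti-CD3 without overlap, but by little (log2 fold change with isotype 0.44, SE 0.12, edgeR adjusted p = 0.00277), and with thinned counts the call was lost (edgeR adjusted p = 0.0816). Nup153 had a log2 fold change of -0.22 (95% interval -0.47 to 0.03, edgeR adjusted p = 0.107).

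Nup210, a membrane-spanning pore protein that varies between tissues, stood apart from the scaffold. Its level was 78.6, 74.5 and 80.2 CPM in unstimulated isotype wells, 88.2, 81.5 and 75 CPM in unstimulated anti-LAIR-1 wells, 86.6, 69 and 66.3 CPM in anti-CD3 isotype wells and 68.7, 76.1 and 70.9 CPM in anti-CD3 anti-LAIR-1 wells. The isotype groups overlapped, and the log2 fold change with anti-CD3 was -0.12 (edgeR adjusted p = 0.411), with a 95% interval of -0.38 to 0.14. A rise of the size seen for the Y complex genes lay outside this interval.

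**Figure D2:**
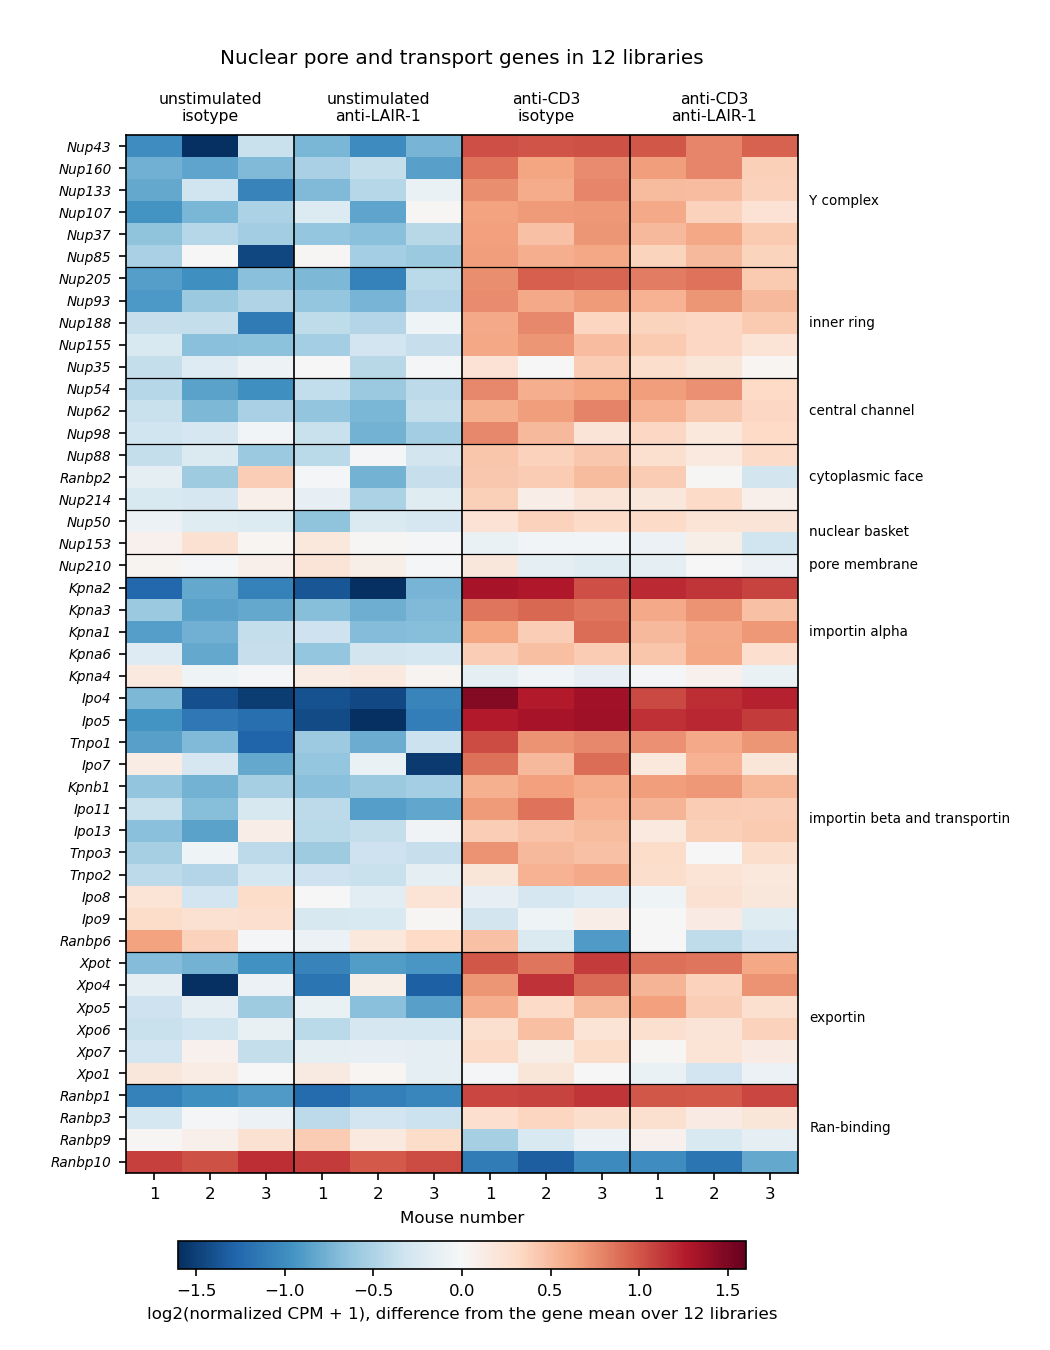
Level of the 47 members tested in every library, as log2(normalized CPM + 1) minus the gene's mean over the 12 libraries (blue lower, red higher). Columns are the 3 mice within each of the 4 conditions and rows are genes grouped by their part of the pore or their class of receptor. The change of colour falls between the unstimulated and the anti-CD3 libraries for most rows, and Ranbp10 runs the opposite way.

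The stretches just before the RefSeq start of 5 of the pore and transport genes that rose are given here because they hold a motif that was searched for in all promoters. Of the members with each motif, those with the largest rises with anti-CD3 in isotype wells were taken. The 250 bases before the start were searched on both strands for the E-box CACGTG, bound by MYC and related factors, and for a 10-base palindromic NRF1 motif, whose letters are the capitals of the last pair of sequences, and the windows came from RefSeq on GRCm38.p6. Of the 40 members with a window, 7 held the E-box (17.5%), beside 6.86% of 27025 genes and 10.9% of the 6507 tested genes with a window. The NRF1 motif was in 4 members (10%), beside 0.877% and 2.23%. The ETS motif CCGGAAGT was in 4 members (10% beside 8.22% of tested genes) and CCAAT in 19 (47.5% beside 40.8%). The sequences run 5′ to 3′ on the strand of the gene and end at the base before its RefSeq start, except that of Nup54, which is 230 bases long and leaves out the last 20 bases before the start because GENCODE annotates them as exon. Distances of motifs are counted from the RefSeq start, the motif is in capitals, and the matches are descriptions of letters and not of binding.
Xpot, chr10:121626333-121626582, minus strand, E-box beginning 231 bases before the start: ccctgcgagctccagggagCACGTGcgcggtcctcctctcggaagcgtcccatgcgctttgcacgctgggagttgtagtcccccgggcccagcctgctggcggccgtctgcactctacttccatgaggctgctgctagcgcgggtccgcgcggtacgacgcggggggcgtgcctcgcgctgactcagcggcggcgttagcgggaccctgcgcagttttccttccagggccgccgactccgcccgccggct
Nup54, chr5:92435220-92435449, minus strand, E-box beginning 100 bases before the start: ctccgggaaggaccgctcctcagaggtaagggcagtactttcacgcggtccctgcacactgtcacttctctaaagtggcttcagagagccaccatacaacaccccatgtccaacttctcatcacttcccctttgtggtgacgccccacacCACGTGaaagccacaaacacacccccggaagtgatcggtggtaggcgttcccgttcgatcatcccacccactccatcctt
Nup93, chr8:94214314-94214563, plus strand, E-box beginning 175 bases before the start: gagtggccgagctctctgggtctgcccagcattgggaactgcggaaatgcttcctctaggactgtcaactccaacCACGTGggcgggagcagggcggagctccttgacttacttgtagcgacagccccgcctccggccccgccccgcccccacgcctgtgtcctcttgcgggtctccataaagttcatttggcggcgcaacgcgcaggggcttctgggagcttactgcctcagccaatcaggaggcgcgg
Nup107, chr10:117792706-117792955, minus strand, NRF1 motif beginning 65 bases before the start: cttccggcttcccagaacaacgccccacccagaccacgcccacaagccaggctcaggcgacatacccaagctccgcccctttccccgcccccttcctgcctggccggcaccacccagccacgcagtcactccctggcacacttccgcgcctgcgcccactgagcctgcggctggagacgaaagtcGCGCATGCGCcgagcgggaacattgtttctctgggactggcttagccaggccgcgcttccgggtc
Nup62, chr7:44815838-44816087, plus strand, NRF1 motif beginning 20 bases before the start: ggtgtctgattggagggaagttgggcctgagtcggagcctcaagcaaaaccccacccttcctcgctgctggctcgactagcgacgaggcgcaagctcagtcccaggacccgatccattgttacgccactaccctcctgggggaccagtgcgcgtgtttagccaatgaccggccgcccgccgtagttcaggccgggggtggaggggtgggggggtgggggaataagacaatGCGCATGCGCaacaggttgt

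The E-box was also found in Ipo7, Nup188, Ranbp2 and Tnpo2, and the NRF1 motif in Nup50 and Xpo5. All 11 genes with either motif were called as higher with anti-CD3 in isotype wells, as were 26 of the 36 other members tested. Among all genes tested the share called as higher was 35.6%. That share was not determined for all genes holding either motif, so the count of 11 has no matching background. Only 40 of the 52 members had a window, so some of these 36 were not searched and are not known to lack a motif.

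Among importin α genes, which encode the adaptors that recognise classical nuclear localization signals, 4 of 5 rose. Kpna2 was at 20.8, 28.5 and 23.7 CPM in unstimulated isotype wells and 129, 126 and 105 CPM in anti-CD3 isotype wells, and at 19.1, 14 and 30.2 and 118, 114 and 109 CPM with anti-LAIR-1. Every anti-CD3 library was above every unstimulated library, and the log2 fold change with isotype was 2.26 (SE 0.15, edgeR adjusted p = 2.11e-12). A processed pseudogene of Kpna2 is annotated, and reads that map equally well to both could not be counted. Kpna3 and Kpna1 had log2 fold changes of 1.61 and 1.35, and Kpna6 of 0.86. Kpna4 did not pass, with a 95% interval of -0.40 to 0.06, which lies below the estimates of the other 4.

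Kpnb1, the importin β that carries importin α and its cargo through the pore, was at 256, 236 and 276 CPM in unstimulated and 590.5, 629 and 600.2 CPM in anti-CD3 isotype wells. With anti-LAIR-1 it was at 251, 264 and 273 CPM without and 634, 644 and 573 CPM with anti-CD3. The levels with anti-CD3 were all above those without, at a log2 fold change of 1.21 with isotype (SE 0.09, edgeR adjusted p = 2.49e-11). Counting Kpnb1, 9 of the 12 genes for importins of the β family and transportins rose and 1 fell with isotype.

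Ipo4 and Ipo5, which carry histones and ribosomal proteins into the nucleus, had the highest fold changes of all members. Ipo4 was at 19.5, 11.8 and 10.8 CPM in unstimulated isotype wells, 11.9, 11.4 and 15.2 CPM in unstimulated anti-LAIR-1 wells, 92.4, 80.6 and 85.1 CPM in anti-CD3 isotype wells and 69.3, 75.4 and 78.3 CPM in anti-CD3 anti-LAIR-1 wells, so that no library with anti-CD3 came near one without. Its log2 fold change with isotype was 2.52 (SE 0.18, edgeR adjusted p = 8.71e-12). Ipo5, shown because its fold change was next to that of Ipo4, was at 61.8, 54.2 and 51.6 CPM in unstimulated and 291, 303 and 309.7 CPM in anti-CD3 isotype wells, and at 44, 39.2 and 55.3 and 272, 279 and 264 CPM with anti-LAIR-1. These groups were likewise apart, with a log2 fold change of 2.38 with isotype (SE 0.11, edgeR adjusted p = 4.12e-15). The 95% intervals of Ipo4 (2.16 to 2.89) and Ipo5 (2.16 to 2.61) overlapped.

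Transportin genes rose as well. Tnpo1, whose protein imports RNA-binding proteins with a proline-tyrosine signal, had a log2 fold change of 1.83, Tnpo3, the importer of serine-arginine-rich splicing factors, of 0.88, and Tnpo2 of 0.85. Ipo11 (1.15), Ipo13 (0.99) and Ipo7 (1.23) rose too, the last from 170 counts over all libraries.

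Ipo9 was the only receptor gene called as lower with isotype. Its level was 35.7, 34.6 and 35 CPM in unstimulated and 23.6, 27.5 and 31.3 CPM in anti-CD3 isotype wells. With anti-LAIR-1 it was at 24.1, 24.4 and 29.4 CPM without and 28.9, 31.7 and 25.2 CPM with anti-CD3, so that the unstimulated isotype libraries were the high ones and the other 3 groups overlapped. The log2 fold change with isotype was -0.37 (edgeR adjusted p = 0.0471), a call that was lost in 9 of 14 other settings. Ipo8 and Ranbp6 did not pass, at -0.33 (edgeR adjusted p = 0.0733) and -0.76 (edgeR adjusted p = 0.127) on the log2 scale.

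**Figure D3:**
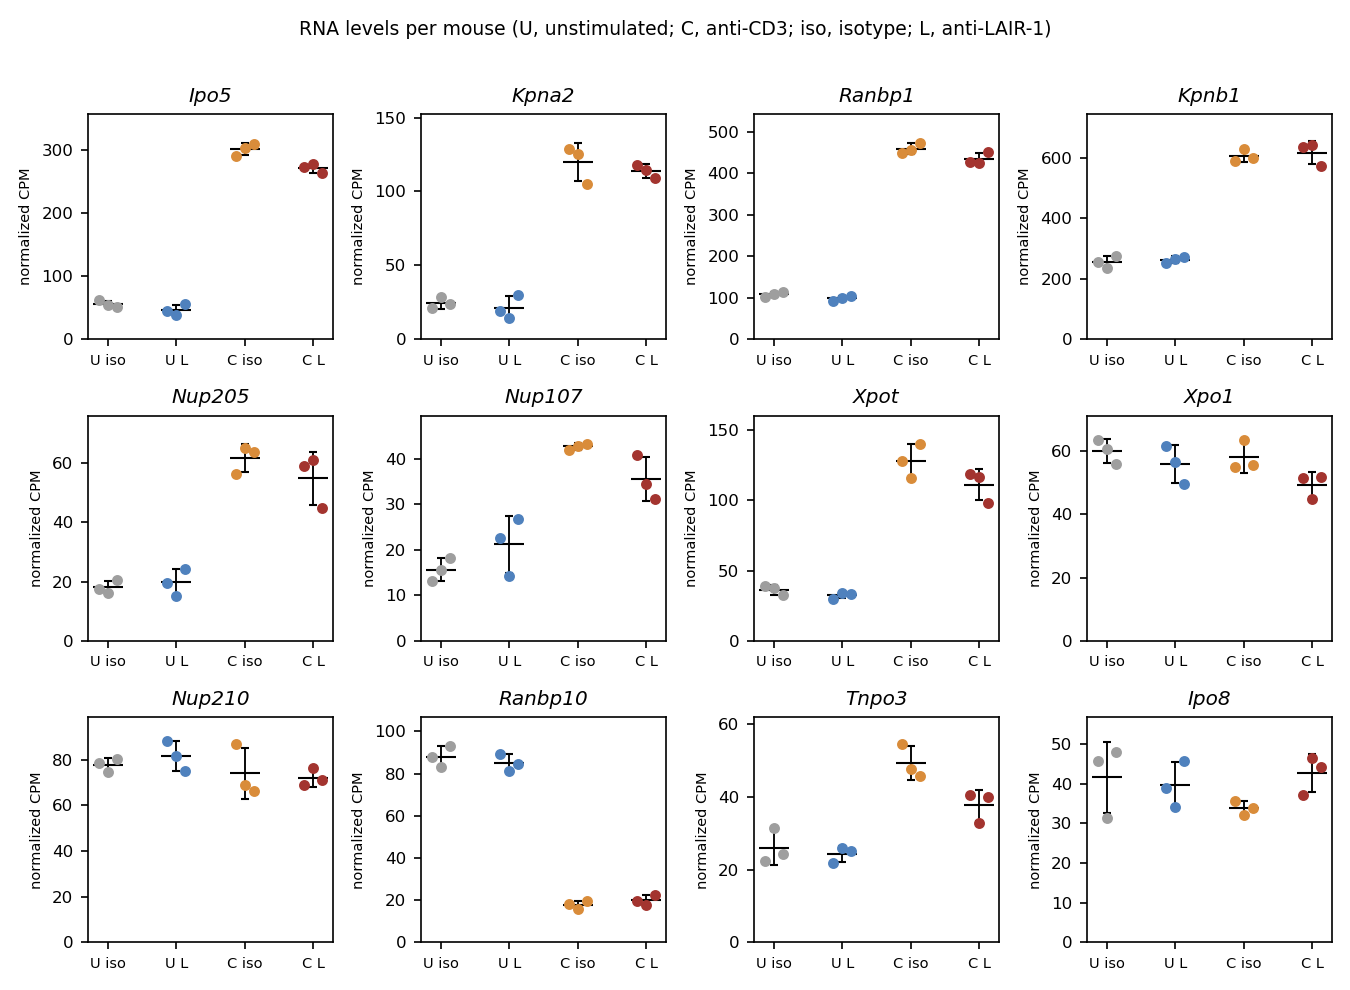
Normalized CPM of 12 members in each library, with 1 point per mouse (U, unstimulated; C, anti-CD3; iso, isotype; L, anti-LAIR-1), the mean as a horizontal line and the SD as an error bar (n = 3). Axes start at 0 and differ between panels. The groups with anti-CD3 are apart from those without in all panels but those of Xpo1, Nup210 and Ipo8, and Ranbp10 is lower with anti-CD3.

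Of the 6 tested exportin genes, 5 rose and Xpo1 did not. Xpot, the exporter of tRNA, was at 39, 37.5 and 32.3 CPM in unstimulated and 128, 116 and 140.1 CPM in anti-CD3 isotype wells, and at 29.9, 33.9 and 33.1 and 118, 116 and 98.4 CPM with anti-LAIR-1. Its anti-CD3 libraries were all above its unstimulated ones (log2 fold change with isotype 1.77, SE 0.13, edgeR adjusted p = 2.12e-11). Xpo4 (1.56), Xpo5, the exporter of microRNA precursors (0.81), Xpo6, the exporter of actin (0.55), and Xpo7 (0.39) had smaller log2 fold changes. Xpo1 encodes the main exporter of proteins with a leucine-rich signal, also called CRM1. It was at 63.4, 60.7 and 56 CPM in unstimulated isotype wells, 61.7, 56.7 and 49.7 CPM in unstimulated anti-LAIR-1 wells, 55, 63.7 and 55.6 CPM in anti-CD3 isotype wells and 51.4, 44.9 and 51.8 CPM in anti-CD3 anti-LAIR-1 wells. With isotype the groups overlapped, and the log2 fold change of -0.09 (edgeR adjusted p = 0.544) had a 95% interval of -0.35 to 0.18, below the estimates of the other 5 exportin genes.

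The remaining Ran-binding genes moved in both directions. Ranbp1, which helps to release Ran-GTP from transport receptors and speeds its hydrolysis, was at 101, 108 and 114 CPM in unstimulated and 449, 455 and 474 CPM in anti-CD3 isotype wells, and at 91, 100.1 and 103 and 428, 424 and 451 CPM with anti-LAIR-1. The groups with and without anti-CD3 were widely separated (log2 fold change with isotype 2.06, SE 0.10, edgeR adjusted p = 6.29e-15). Ranbp3, a cofactor of Xpo1, rose by 0.41. Ranbp10 was the only 1 of the 47 tested members with a log2 fold change below -1, and fell from 87.9, 83.1 and 93.1 CPM in unstimulated to 18.1, 15.7 and 19.6 CPM in anti-CD3 isotype wells, and from 89.3, 81.3 and 84.4 to 19.8, 17.6 and 22.6 CPM with anti-LAIR-1. All unstimulated libraries lay above all anti-CD3 libraries, and the log2 fold change with isotype was -2.33 (SE 0.14, edgeR adjusted p = 8.83e-13). Ranbp9, its paralog, fell by 0.42 on the log2 scale (edgeR adjusted p = 0.0307), a call that was lost in DESeq2 (adjusted p = 0.0675) and in 5 other settings. Ranbp9 and Ranbp10 encode scaffold proteins of an E3 ubiquitin ligase complex and are not transport receptors.

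Too few counts for these tests were found for 5 members. Nup210l, a relative of Nup210, had 102 counts over all libraries, at 4.29, 6.11 and 1.08 CPM in unstimulated isotype and 0, 1.48 and 1.28 CPM in anti-CD3 isotype wells. It was left out of the fit by the filter on low counts, and with genes of low counts kept it was called as lower (log2 fold change -1.87, edgeR adjusted p = 0.00652). Nup62-il4i1, a read-through transcript that shares sequence with Nup62, had 7 counts in all, and Nup62cl, Ranbp17 and Ranbp3l had 1 count each, at which no difference was detectable in these 4.

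Of the 40 members called with isotype, 29 were called under every other setting in which they were tested. The 14 other settings comprised other scalings and filters, DESeq2, mouse as a block, thinned counts and each of the 6 libraries left out. Among the 29, Nup43, Xpo4 and Nup85 were tested in 13 of these settings, since they lacked 10 counts in some library. With libraries left out 1 at a time, 8 members lost the call in at least 1 of these fits. Ipo9 was lost without any of 5 libraries, all but mouse 3 with anti-CD3 (edgeR adjusted p = 0.0607 to 0.206), and Nup98 without mouse 1 or 2 of either group (edgeR adjusted p = 0.0739 to 0.118). Nup214 was lost without mouse 1 or 2 unstimulated or mouse 1 with anti-CD3 (edgeR adjusted p = 0.106 to 0.121), and Ranbp9 without mouse 3 unstimulated or mouse 1 or 2 with anti-CD3 (edgeR adjusted p = 0.07 to 0.161). Ranbp2 was lost without mouse 1 or 2 unstimulated or mouse 3 with anti-CD3 (edgeR adjusted p = 0.0712 to 0.206), and Xpo7 without mouse 1 or 3 unstimulated or mouse 3 with anti-CD3 (edgeR adjusted p = 0.0517 to 0.0886). Ipo7 was lost without mouse 2 or 3 unstimulated or mouse 3 with anti-CD3 (edgeR adjusted p = 0.0508 to 0.0696) and Ranbp3 without mouse 1 unstimulated (edgeR adjusted p = 0.0502). In the other direction, Nup210l passed the filter and was called as lower without mouse 3 unstimulated or any 1 of the anti-CD3 mice (edgeR adjusted p = 0.00213 to 0.026, log2 fold change -1.53 to -2.33), Ipo8 was called as lower without mouse 2 unstimulated (edgeR adjusted p = 0.00687), Ranbp6 as lower without mouse 1 with anti-CD3 (edgeR adjusted p = 0.0306) and Nup35 as higher without mouse 2 with anti-CD3 (edgeR adjusted p = 0.0382).

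The question whether the response to anti-CD3 was also present under LAIR-1 ligation was addressed with the anti-LAIR-1 wells. The summed level of the members was 1802, 1792 and 1886 CPM without anti-CD3 and 3542, 3554 and 3394 CPM with it, which again separated the groups in every mouse. Of the 47 tested members, 38 were called, 36 as higher and 2 as lower, where 36.8% and 36.0% of all 8723 genes tested were higher and lower (72.8% in either direction). The median log2 fold change was 0.803, beside -0.0216 for all genes. Scaling by the upper quartile moved the median of all genes to -0.229 and gave 32 members higher and 6 lower.

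Called in both the isotype and the anti-LAIR-1 wells were 36 members as higher and 2, Ranbp9 and Ranbp10, as lower. The comparisons use different libraries of the same mice. The highest log2 fold changes under anti-LAIR-1 were those of Ipo5 (2.55), Ipo4 (2.52), Kpna2 (2.42) and Ranbp1 (2.14), while that of Ranbp10 was -2.10. The median over the Y complex genes was 1.04, beside 1.45 with isotype, and that over the inner ring genes 0.738, beside 1.12. Kpnb1 had log2 fold changes of 1.21 in isotype and 1.23 in anti-LAIR-1 wells, and Xpot of 1.77 and 1.78. Xpo1, Nup210, Nup153, Nup35, Kpna4, Ipo8 and Ranbp6 passed in neither. Of the 38 members called, 28 were called under all 14 other settings, and 4 were lost on leaving out 1 library. Xpo7 was lost without any of 5 libraries, all but mouse 1 with anti-CD3 (edgeR adjusted p = 0.0541 to 0.123), and Ranbp9 without mouse 1 unstimulated or mouse 2 with anti-CD3 (edgeR adjusted p = 0.0527 to 0.0733). Ipo7 was lost without mouse 1 or 3 unstimulated or mouse 2 with anti-CD3 (edgeR adjusted p = 0.0517 to 0.108), and Ipo13 without mouse 1 or 2 unstimulated (edgeR adjusted p = 0.0521 to 0.0542).

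Ranbp2 and Ipo9 were called with isotype only. Ranbp2 had log2 fold changes of 0.53 in isotype and 0.47 in anti-LAIR-1 wells (edgeR adjusted p = 0.0638, and 0.0481 with mouse as a block, 0.0206 without mouse 1 unstimulated and 0.0141 without mouse 3 with anti-CD3). Ipo9 had -0.37 and 0.14. The test of the difference itself passed for neither gene, at interactions of -0.09 (edgeR adjusted p = 0.953) and 0.48 (edgeR adjusted p = 0.355) on the log2 scale.

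**Figure D4:**
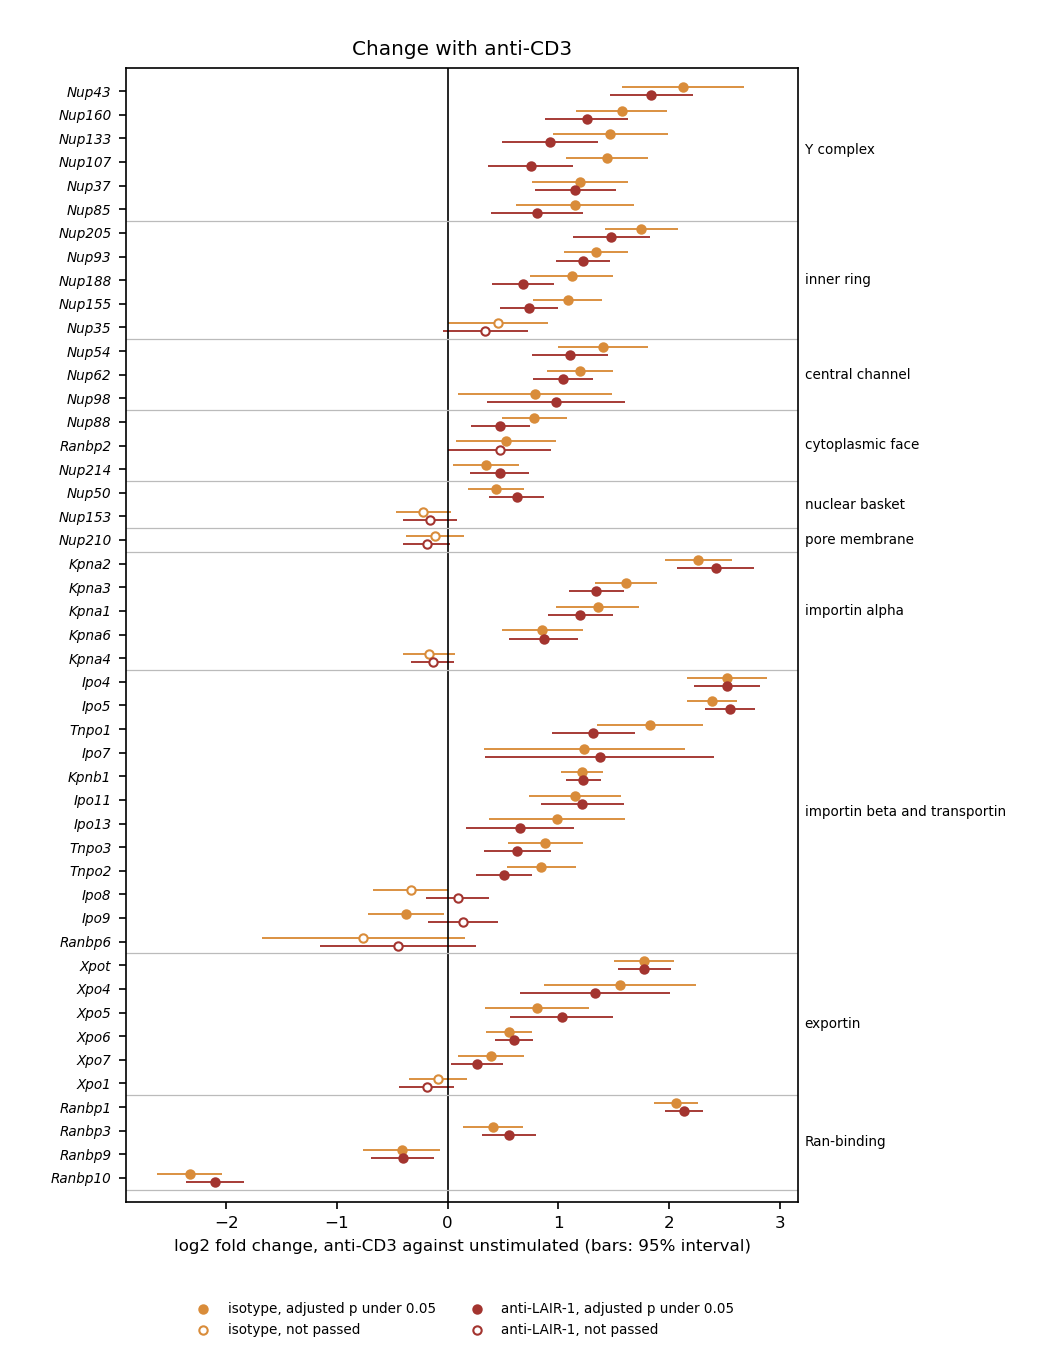
Log2 fold change of each member with anti-CD3 against unstimulated, in isotype wells (orange) and anti-LAIR-1 wells (red), with 95% intervals as bars. Filled points had an edgeR adjusted p-value under 0.05, and genes are grouped by their part of the pore or class of receptor. Most points of both colours lie to the right of 0 and the pairs of intervals overlap for most genes.

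Which genes LAIR-1 ligation changes in stimulated cells was the question of the sequencing experiment. In the presence of anti-CD3, none of the 47 tested members was called in edgeR's quasi-likelihood test, while 5.8% of all 8539 genes tested were, 3.92% as higher and 1.87% as lower. At an unadjusted p-value under 0.05 there were 13 members in edgeR, 12 lower and 1 higher (18.9% of all genes, 8.56% lower and 10.4% higher), and 9 in DESeq2, which called 0 after adjustment. The log2 fold change was below 0 for 40 of 47 members and for 49.4% of all genes. Its median was -0.119 over the members and 0.00391 over all genes.

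The estimates were small and mostly well bounded. For 40 of 47 members the 95% interval lay within a 1.5-fold change in either direction, and for 46 within a 2-fold change. Summed over the members, the level of 3692, 3758 and 3717 CPM in isotype wells against 3542, 3554 and 3394 CPM in anti-LAIR-1 wells was lower with anti-LAIR-1 in each of the 3 mice, without overlap of the groups. All 3 anti-LAIR-1 libraries lay below all 3 isotype libraries for 15 members and 11.2% of all genes, and above them for 1 member and 12.9% of all genes. With anti-CD3, the summed level of the naïve markers was 1430 to 1540 CPM with isotype and 1780 to 2050 CPM with anti-LAIR-1, and that of the activation genes 2540 to 2840 and 2270 to 2630 CPM, and the part of these differences in the members' values was not tested.

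The 20 tested nucleoporin genes among the members all had estimates below 0, with a median of -0.153 and a range from -0.379 to -0.036. The sign was not uniform for 11 tested genes of pore proteins with other names, which are not members. Of these 11, 7 were below 0, with a median of -0.0262 and a range from -0.607 to 0.267. All 20 stayed below 0 under the other scalings tried (RLE size factors, the upper quartile and DESeq2's size factors), while 16 did with thinned counts and 16 without mouse 3 of the anti-CD3 anti-LAIR-1 group, at a median of -0.0991. Without mouse 1 or mouse 3 of the anti-CD3 isotype group, 18 and 19 did. In all 3 mice the value was lower with anti-LAIR-1 for 8 of the 20, beside 18.4% of all genes tested. The lowest p-value among them was that of Nup155, an inner ring protein, at a log2 fold change of -0.29 (edgeR adjusted p = 0.123). For Nup205, Nup43 and Nup54 the log2 fold changes were -0.17, -0.12 and -0.07, with 95% intervals reaching from -0.42 to 0.08, -0.38 to 0.14 and -0.35 to 0.21. Without anti-CD3, 8 of 21 tested nucleoporin genes were below 0, with a median of 0.0897 that fell to 0.00972 without mouse 1 of the anti-LAIR-1 group, to 0.0172 without mouse 3 of that group and to 0.0385 without mouse 2 of the isotype group.

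Among the transport receptors, 18 of 23 estimates were below 0, with a median of -0.158. The median was -0.087 without mouse 1 of the isotype group, 16 of 23 were below 0 without mouse 3 of the anti-LAIR-1 group, and with thinned counts 13 of 22 were, at a median of -0.076. Tnpo3 had the lowest p-value of all members. Its anti-CD3 libraries held 54.6, 47.6 and 45.9 CPM with isotype and 40.5, 32.9 and 39.99 CPM with anti-LAIR-1, and its unstimulated libraries 22.5, 31.4 and 24.2 and 21.9, 25.9 and 25.1 CPM. All 3 anti-LAIR-1 libraries with anti-CD3 lay below all 3 isotype ones, and the log2 fold change was -0.38 (95% interval -0.64 to -0.13, edgeR adjusted p = 0.0766). It was called when genes with low counts were kept in the fit (edgeR adjusted p = 0.046). Kpna3 followed, with 90.3, 94.2 and 89.8 CPM with isotype and 75.3, 82 and 68.3 CPM with anti-LAIR-1, again without overlap (log2 fold change -0.29, edgeR adjusted p = 0.0832).

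Estimates above 0 were found for 7 of the 47 tested members, and Ipo8 was the only one of them with all anti-LAIR-1 libraries above all isotype libraries. With anti-CD3 it was at 35.6, 32.2 and 33.7 CPM in isotype and 37.2, 46.4 and 44.2 CPM in anti-LAIR-1 wells, and the groups did not overlap. Without anti-CD3 they did, at 45.6, 31.4 and 47.9 and 39, 34.2 and 45.7 CPM. The difference in stimulated cells did not pass the test (log2 fold change 0.32, edgeR adjusted p = 0.154). Under the 14 other settings the log2 fold change of Ipo8 ran from 0.0118 to 0.42, and none of them called it. Tnpo3, Kpna3 and Ipo8 are named here for their p-values and were chosen after these were seen.

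For several of the receptor and Ran-binding genes described above, the difference between anti-LAIR-1 and isotype with anti-CD3 had a narrow interval. Kpnb1 had a log2 fold change of 0.02 (95% interval -0.13 to 0.16) and Kpna2 one of -0.07 (-0.27 to 0.12). Ranbp1 was at -0.09 (-0.23 to 0.05), Ipo5 at -0.16 (-0.30 to -0.01) and Ipo4 at -0.22 (-0.41 to -0.02). Xpo1 and Xpot had log2 fold changes of -0.24 (-0.47 to -0.02) and -0.21 (-0.41 to -0.01). None of these intervals reached a change of 1.5-fold, and the intervals that leave out 0 belong to unadjusted tests.

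**Figure D5:**
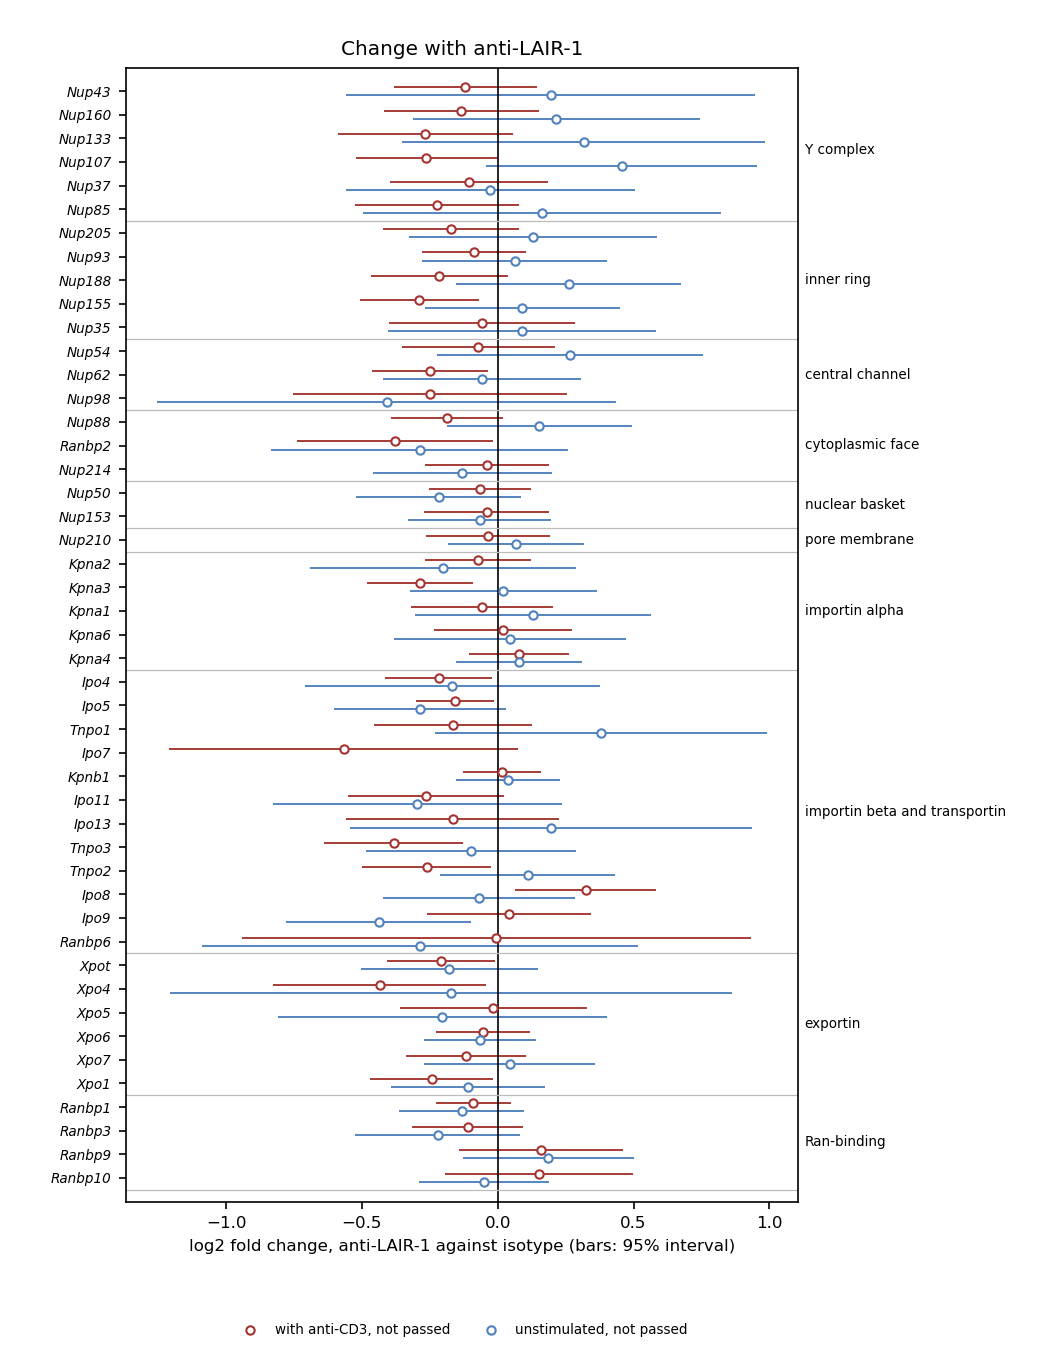
Log2 fold change of each member with anti-LAIR-1 against isotype, in anti-CD3 wells (red) and unstimulated wells (blue), with 95% intervals as bars. All points are open because no adjusted p-value was under 0.05. Red points lie left of 0 for 40 of 47 genes, and the blue intervals are the wider ones for most genes.

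In unstimulated cells, no member passed the test for anti-LAIR-1. edgeR called 0 of 47 members and 0.0% of all 8500 genes tested, and DESeq2 called 0 members. At an unadjusted p-value under 0.05 there was 1 member in each tool, where 4.29% of all genes passed in edgeR. This was Ipo9 in edgeR, at a log2 fold change of -0.44 (unadjusted p = 0.014, edgeR adjusted p = 0.997), the gene whose unstimulated isotype libraries stood above the other groups. The median log2 fold change of the members was -0.0278, and -0.0345 to 0.0249 with 1 library left out. Precision was lower here than with anti-CD3, and the 95% interval lay within a 1.5-fold change for 26 of 47 members and within a 2-fold change for 43.

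Whether anti-LAIR-1 altered the response to anti-CD3 was tested as the interaction over all 12 libraries, with 48 members. edgeR called 0 of them after adjustment, beside 2.09% of all 8916 genes tested. Unadjusted p-values were under 0.05 for 2 members (12.2% of all genes) in edgeR and for 1 in DESeq2, which also called 0 after adjustment. All 6 Y complex genes among the members had an interaction below 0, with a median of -0.362, beside 45.2% of all genes below 0. Over all 21 tested nucleoporin genes among the members, 16 were below 0, at a median of -0.184. Of 11 tested genes for pore proteins with other names, which are not members, 4 were below 0, at a median of 0.058. Without mouse 2 of the unstimulated isotype group or mouse 3 of the unstimulated anti-LAIR-1 group, 5 of 6 Y complex genes were below 0. With thinned counts their median was -0.549. Nup107 was lowest, at -0.72 on the log2 scale (95% interval -1.27 to -0.17, unadjusted p = 0.0127, edgeR adjusted p = 0.217). Its level was 13.2, 15.5 and 18.3 CPM in unstimulated isotype, 22.7, 14.3 and 26.7 CPM in unstimulated anti-LAIR-1, 42, 43 and 43.4 CPM in anti-CD3 isotype and 40.9, 34.6 and 31.3 CPM in anti-CD3 anti-LAIR-1 wells, so that the anti-LAIR-1 groups were closer to each other than the isotype groups. Without mouse 2 of the unstimulated anti-LAIR-1 group it passed (edgeR adjusted p = 0.0403). Nup107 was named after its value was seen. The interval of the interaction lay within a 1.5-fold change for 20 of 48 members and within a 2-fold change for 37, and for the other 11 it held differences of 2-fold.

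The other genes of the pathway were described from lists of the Ran cycle, of pore proteins with other names, of mRNA export and of the nuclear lamina and its links to the cytoskeleton (LINC). All 7 genes of the Ran cycle rose with anti-CD3 in isotype wells, with a median log2 fold change of 1.32. Ran itself rose by 2.28 (edgeR adjusted p = 2.25e-16). Rcc1, which loads Ran with GTP on chromatin, rose by 3.04, Rangrf, which binds Ran, by 3.06, Rangap1, which triggers GTP hydrolysis in the cytoplasm, by 1.24, and Cse1l, the exportin that returns importin α to the cytoplasm, by 1.29 on the log2 scale. Of 11 further pore genes, 6 rose and 5 did not pass, with the membrane protein Pom121 highest at 2.08 (edgeR adjusted p = 9.67e-08). Of 21 mRNA export genes, 16 rose and 5 did not pass, and Nxf1, the mRNA exporter itself, had a log2 fold change of -0.03 (edgeR adjusted p = 0.794).

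The lamina and LINC genes went both ways, with 3 higher, 5 lower and 3 not passing of 11 tested. Syne1 (-3.71), Sun2 (-3.44) and Syne2 (-3.18), which together bridge the nuclear envelope to the cytoskeleton, and Lbr, the lamin B receptor (-2.44), fell on the log2 scale, while Banf1 rose by 1.53. With anti-LAIR-1, all 7 genes of the Ran cycle rose as well (median 1.32), and of the pore genes with other names 8 rose and 1 fell. In stimulated cells, edgeR called 3 of the 49 tested genes of these lists for anti-LAIR-1, a share of 6.12% beside 5.8% of all genes. Tpr, which builds the filaments of the nuclear basket, was at 94.2, 113 and 88.5 CPM with isotype and 63.3, 72.9 and 58.6 CPM with anti-LAIR-1, without overlap (log2 fold change -0.61, edgeR adjusted p = 0.00305). Sun2 was at 29.9, 27.7 and 26.8 CPM with isotype and 55.3, 54.2 and 50.6 CPM with anti-LAIR-1 (log2 fold change 0.93, edgeR adjusted p = 8.24e-05). Lbr had a log2 fold change of 0.51 (edgeR adjusted p = 0.0258), which was lost without mouse 1 or 3 of the isotype group, without mouse 2 or 3 of the anti-LAIR-1 group and with thinned counts (edgeR adjusted p up to 0.119).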

How the data were processed

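RNA of 12 wells, 1 per mouse and condition, was measured by CEL-seq on a NextSeq 500. The authors aligned the reads to the mm10 transcriptome with BWA MEM, dropped reads with more than 1 best position and deposited raw counts per gene symbol from the MapAndGo script. Whether molecular identifiers were collapsed is not given in the sources used here, so limits from counts cover counting error only. Symbols were matched to GENCODE M21 and RefSeq on GRCm38.p6 (14273 of 14323), and only protein-coding genes were kept once the tests had run. The members and lists were chosen with earlier results of these data known.

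Groups were compared with edgeR 4.0.16 in R 4.3.3 (TMM, filterByExpr on the libraries of each fit, the two-sided quasi-likelihood F-test) with Benjamini-Hochberg adjustment over all genes tested and a threshold of 0.05. The main fits had no block. The study's methods name DESeq2 and give no model formula, and DESeq2 1.42.0 was run as an alternative. Intervals are 95% and come from the same fits. Libraries with the same number came from the same mouse, and deviations from group means correlated with a mean r of 0.0432 within mice (18 pairs) and -0.0216 between mice (36 pairs). Deviations within a group cancel by construction, so the value between mice largely follows from that within mice and is no separate comparison. No 2 libraries of a group agreed within sampling noise (chi-square per gene 3.81 to 5.62). The fits were checked on simulated data in which 200 genes changed 2-fold.

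Levels in every library are given for 6 genes chosen by name (Xpo1, Kpnb1, Kpna2, Ranbp1, Nup98, Nup210) and, in each class, for the called members with the largest rise and fall with anti-CD3 in isotype wells. Ipo5, Nup107, Nup210l, Tnpo3, Kpna3, Ipo8 and the genes outside the members were added after their values were seen.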

Additional observations from a re-analysis of the deposited data

Results flagged for a closer look

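No member met a rule for a closer look, but 2 genes of the other lists did, because their difference between anti-LAIR-1 and isotype wells was not the same in stimulated and unstimulated cells by the interaction over all 12 libraries. For Tpr, which builds the filaments of the nuclear basket, the interaction was -0.698 on the log2 scale (edgeR's quasi-likelihood test, adjusted p = 0.0317). Its level was 76.6, 92.5 and 75.9 CPM in unstimulated isotype wells, 91.0, 96.4 and 75.0 CPM in unstimulated anti-LAIR-1 wells, 94.2, 113 and 88.5 CPM in anti-CD3 isotype wells and 63.3, 72.9 and 58.6 CPM in anti-CD3 anti-LAIR-1 wells. The call held in 11 of 19 other settings, with adjusted p-values from 0.00188 to 0.122, and was lost on leaving out any of 8 single libraries. For Sun2, a LINC protein of the inner nuclear membrane, the interaction was 0.836 (edgeR adjusted p = 0.00212), and the call held in all 19 other settings. Sun2 was at 270.2, 349.5 and 270.6 CPM in unstimulated isotype, 302.3, 318.3 and 333.1 CPM in unstimulated anti-LAIR-1, 29.9, 27.7 and 26.8 CPM in anti-CD3 isotype and 55.3, 54.2 and 50.6 CPM in anti-CD3 anti-LAIR-1 wells.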

How the results depend on the processing

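The counts of called members were recomputed with other scalings (RLE size factors, upper quartile), DESeq2, other filters on low counts, mouse as a block, thinned counts, all 12 libraries in 1 fit and each library left out. The count with anti-CD3 was 34 to 41 in isotype wells (40 reported) and 32 to 39 in anti-LAIR-1 wells (38 reported), and 34 to 39 and 35 to 38 with 1 library left out. With mouse as a block, 39, 39, 0, 0 and 0 members were called for anti-CD3 with isotype, anti-CD3 with anti-LAIR-1, anti-LAIR-1 with anti-CD3, anti-LAIR-1 without it and the interaction, and the block changed the calls of Nup98 and Ranbp2 only. For anti-LAIR-1 with anti-CD3, keeping genes with low counts gave 1 call, Tnpo3; the cause was not tested. For the interaction, leaving out 1 library gave 0 to 1 calls, the 1 being Nup107. Of 629 values of the members named by rule under these alternatives, 606 stayed on their side of the threshold, 19 lost it, 4 gained it and 0 changed sign with a call. Depth limited the unstimulated groups most, where 3 counts were up to 1.68 CPM.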
